A study of Mus musculus with 12 samples.

Results

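Nr4a1, Nr4a2, Nr4a3, Egr1, Egr2, Egr3, Ier2, Ier3, Ier5 and Plk2 are early response genes, and their array signals were examined in sorted mouse bone marrow stem cells. The 10 genes were chosen by their measured values in earlier results of these same data, so that the values below describe them, and no p-value of a member is given. They are 10 of 18193 genes with at least 1 probe set that carries a single gene symbol. All 22 such probe sets of the 10 genes were taken, 15 on the array design MOE430A and 7 on MOE430B. A filter on low values kept 14 of them, from 9 genes, and both Egr2 probe sets were below it.

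The cells had been sorted by flow cytometry into fractions without surface CD49 (CD49-, 3 samples) and with it (CD49+, 3 samples), and CD49 is the name of the integrin alpha subunits. Each sample held about 30 cells at an estimated purity of 97.03%, lysed 0 h after the sort and amplified by PCR into cDNA. Every one of the 6 cDNA preparations went onto both array designs. For all samples the labels also give 7% fetal bovine serum (FBS). The labels name no subunit, strain, genotype or age, and leave it unsaid whether replicates stem from different mice or sorts, so p-values here reflect only sample-to-sample spread, part of which may be technical. The titles carry 2 prefixes, called submissions here: replicate 1 of each CD49 group is MZ1484, and replicates 2 and 3 of each are MZ1468, which gives 2 samples against 4.

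Early response genes lie idle in resting cells and are transcribed within minutes of a stimulus, without new protein synthesis, by factors such as SRF with its ELK partners and CREB that kinase cascades switch on. The Nr4a genes encode 3 orphan nuclear receptors (NUR77, NURR1 and NOR1), and the Egr genes encode zinc finger factors that bind GC-rich DNA. In mice, Nr4a1 and Nr4a3 are known to restrain the proliferation of blood stem cells, and Egr1 is known to keep them dividing rarely and resident in the marrow. Ier2, Ier3 and Ier5 are small immediate early response genes with roles in transcription, survival and stress, and Plk2 is a polo-like kinase that is induced early in the cell cycle.

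The sequence before the transcription start is shown for 6 of the genes, because CREB acts through a short motif near the start and windows with and without it can be read side by side. RefSeq windows (build GRCm38.p6) were at hand for 7 of the 10 genes, and the 250 bases before each annotated start were searched. The motif is the core of the cAMP response element (CRE), TGACG, searched on both strands, so that it reads CGTCA on the opposite strand; capitals mark each place. Each sequence is written 5′ to 3′ on the strand of its gene.
Nr4a1 (chr15:101266596-101266845, plus strand): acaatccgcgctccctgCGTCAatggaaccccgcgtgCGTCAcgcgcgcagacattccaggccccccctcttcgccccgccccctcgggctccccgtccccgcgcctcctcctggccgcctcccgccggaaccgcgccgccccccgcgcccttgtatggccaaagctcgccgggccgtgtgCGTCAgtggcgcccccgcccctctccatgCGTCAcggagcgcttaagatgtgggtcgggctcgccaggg
Nr4a2 (chr2:57124004-57124253, minus strand): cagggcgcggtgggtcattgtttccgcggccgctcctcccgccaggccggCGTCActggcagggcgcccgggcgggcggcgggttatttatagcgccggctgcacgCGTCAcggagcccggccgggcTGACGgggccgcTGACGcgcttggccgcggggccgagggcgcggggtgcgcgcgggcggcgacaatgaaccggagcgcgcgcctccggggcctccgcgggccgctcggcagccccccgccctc
Nr4a3 (chr4:48045055-48045304, plus strand): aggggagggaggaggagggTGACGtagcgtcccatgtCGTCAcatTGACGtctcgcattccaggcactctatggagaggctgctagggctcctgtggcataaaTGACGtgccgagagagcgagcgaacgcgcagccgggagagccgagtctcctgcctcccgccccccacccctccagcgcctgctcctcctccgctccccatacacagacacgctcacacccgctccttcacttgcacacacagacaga
Plk2 (chr13:110394794-110395043, plus strand): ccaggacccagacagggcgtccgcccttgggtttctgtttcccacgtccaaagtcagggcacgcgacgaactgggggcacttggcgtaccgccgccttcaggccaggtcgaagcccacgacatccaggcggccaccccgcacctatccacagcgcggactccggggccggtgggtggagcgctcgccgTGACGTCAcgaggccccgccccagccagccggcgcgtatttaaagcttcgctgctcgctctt
Ier3 (chr17:35821463-35821712, plus strand): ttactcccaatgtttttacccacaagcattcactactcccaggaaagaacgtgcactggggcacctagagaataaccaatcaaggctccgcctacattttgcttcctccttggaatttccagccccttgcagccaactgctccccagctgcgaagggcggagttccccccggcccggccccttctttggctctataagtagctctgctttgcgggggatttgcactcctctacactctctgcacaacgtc
Ier5 (chr1:155099637-155099886, minus strand): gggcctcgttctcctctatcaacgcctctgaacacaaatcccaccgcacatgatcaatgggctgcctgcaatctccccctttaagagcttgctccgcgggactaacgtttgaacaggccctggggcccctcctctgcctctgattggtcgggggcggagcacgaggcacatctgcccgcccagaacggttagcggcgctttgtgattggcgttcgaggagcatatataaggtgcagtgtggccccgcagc

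The 3 Nr4a windows held 4 core sites each. In Plk2 there were 2 core sites that overlap in 1 full CRE, TGACGTCA, whose first base lies at -62 from the transcription start. The windows of Ier3 and Ier5 held none. Of 32851 windows of the same length over all genes, 17.8% held at least 1 core site, 3.90% at least 2 and 0.137% at least 4, and 1.55% held the full CRE. Egr2 had 5 windows, of which 3 overlapping ones held 2 core sites and 4 held a CArG box, the motif that SRF binds, found in 1.47% of all windows. The CArG box was in no window of the other 6 genes. The motif GCGTGGGCG of the Egr factors (0.536% of windows) and AAAGGTCA of the Nr4a receptors (1.34%) were in none of the 11 windows of the 7 genes. A match is a description of these letters only.

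**Figure D1:**
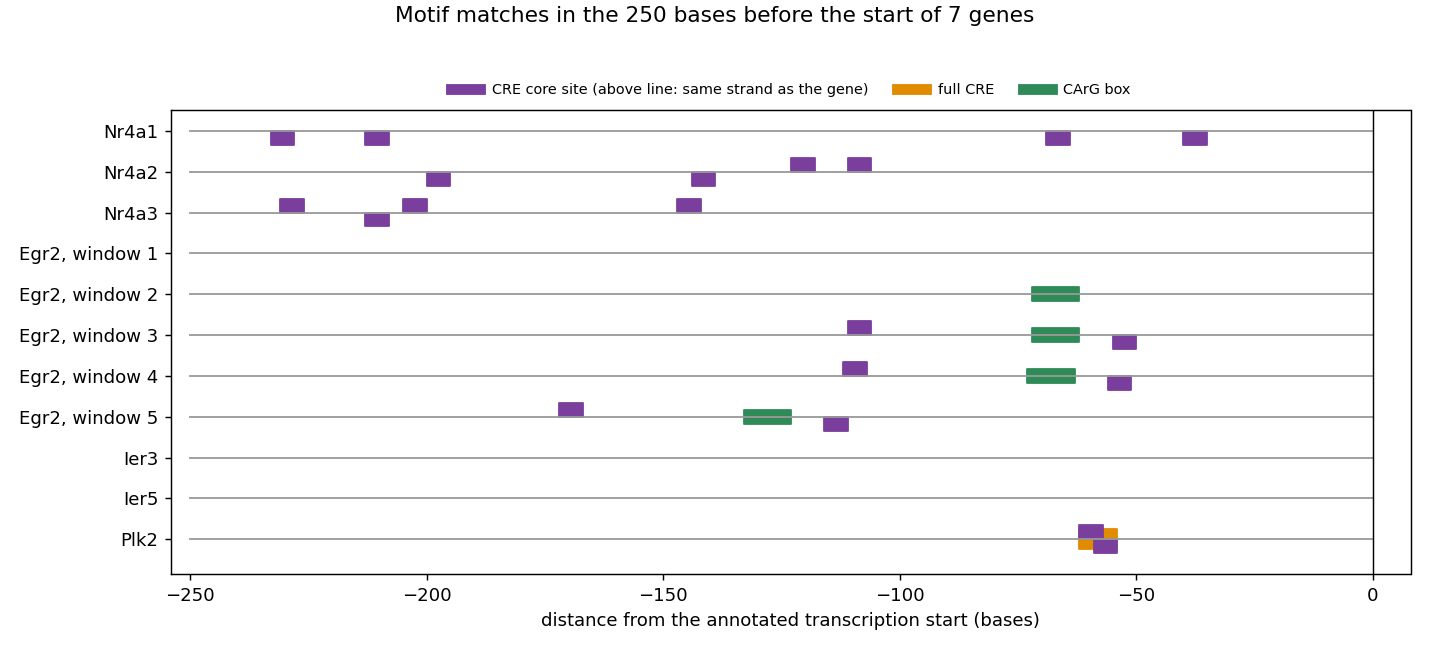
Motif matches (coloured blocks) in the 250 bases before the annotated start of 7 genes, by distance from the start in bases. Core sites above a line lie on the strand of the gene and those below it on the other strand; the 3 Nr4a windows hold 4 core sites each, and those of Ier3 and Ier5 hold none.

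The files hold linear MAS5 signals with no detection calls, so the highest signal among the 27 Bacillus control probe sets of an array, for transcripts that mouse cells lack, was taken as its background bound. It lay between 78.0 and 149 on MOE430A and between 844 and 1466 on MOE430B. For 100 probe sets shared by the designs, the MOE430B signal exceeded the MOE430A one by a median of 3.12 (log2), and a level in one probe set is not read as more or less RNA than in another. The offset favours MOE430B where the brightest probe set of a gene is taken. The share of probe sets above the bound ran from 39.5% to 61.1% on MOE430A arrays and from 16.5% to 28.6% on MOE430B arrays. The submissions also differed in scan day on both designs and in fluidics station on MOE430A, so that these and the submission cannot be told apart. Each cell type marker, here and below, was represented by its probe set above the bound on most arrays, a choice that favours detection. Of the stem cell markers, 7 of 10 were above the bound on all arrays of their design, Kit, Hlf, Mecom and Gata2 among them, while Fgd5 and Slamf1 were above it in 3 samples each, the CD49- ones.

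Of the 22 member probe sets, 11 had both MZ1484 signals above all 4 MZ1468 signals, 7 of 15 on MOE430A and 4 of 7 on MOE430B, and 4 had CD49 groups that did not overlap, 3 on MOE430A and 1 on MOE430B. For 8 of the 10 brightest probe sets, the one with the highest mean signal for each gene, this order by submission was seen, the exceptions being Egr2 and Ier2. Over all probe sets this order was found for 14.5% on MOE430A and 10.1% on MOE430B. The CD49 groups overlapped for 10 of the 10 brightest probe sets, while over all probe sets they did not overlap for 7.31% on MOE430A and 9.58% on MOE430B. The members were chosen on these contrasts, and nothing further is read from these shares.

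**Figure D2:**
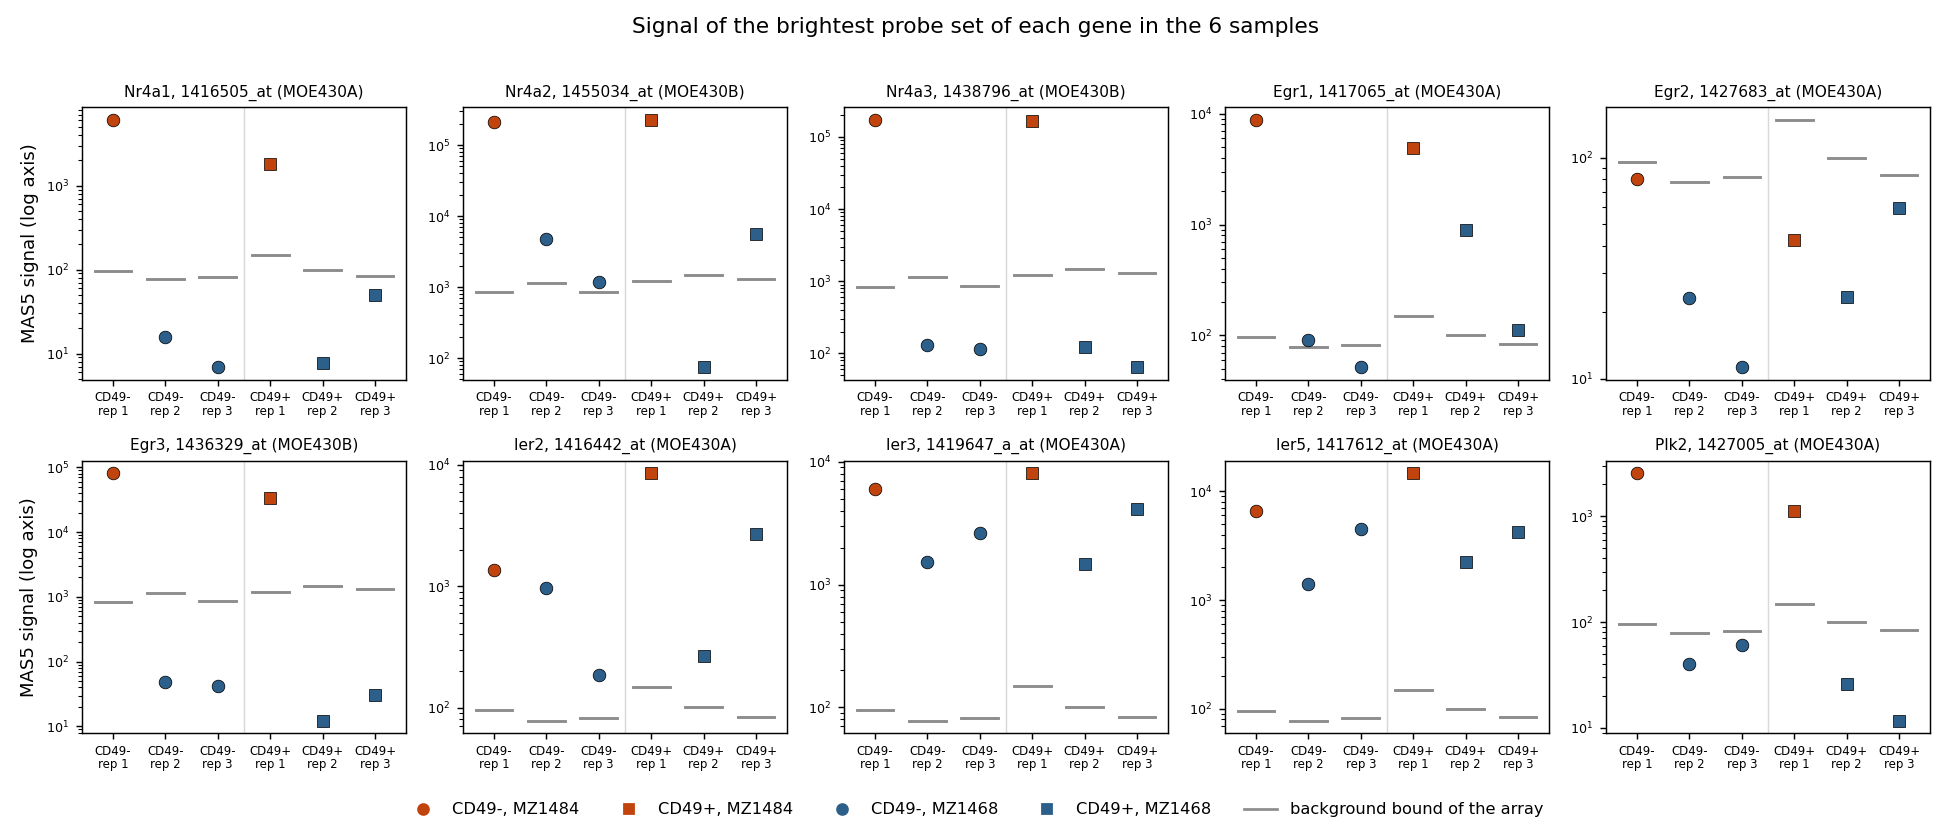
MAS5 signal (log axis) of the brightest probe set of each of the 10 genes in the 6 samples, with circles for CD49-, squares for CD49+, and grey bars for the background bound of each array. The 2 MZ1484 samples (red) lie above all 4 MZ1468 samples (blue) for every gene shown except Egr2 and Ier2.

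Nr4a1, the receptor NUR77, was measured by a single probe set, 1416505_at on MOE430A. Its signal was 6121 in CD49- replicate 1 and 1818 in CD49+ replicate 1, the MZ1484 samples, and 15.9, 6.87, 7.71 and 49.4 in the MZ1468 samples (CD49- replicates 2 and 3, then CD49+ replicates 2 and 3). All 4 MZ1468 signals were at or below the bound, and Nr4a1 was at least 39.0-fold higher in MZ1484. "At least" sets the mean log2 signal of the brighter samples against the mean of the higher of bound and signal in the dimmer ones. On the log2 scale with a pseudocount the difference MZ1468 minus MZ1484 was -6.25 ± 0.72 (SE), and the CD49+ minus CD49- difference was -0.29 ± 2.27. Here and below, the SE of a CD49 difference comes from a fit without the submission, so the gap between submissions is part of it. Within MZ1484, 1 sample against 1, CD49+ was lower by -1.74, and within MZ1468 no CD49 direction can be read below the bound.

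Nr4a3, the receptor NOR1, separated the submissions widely in its brightest probe set, 1438796_at on MOE430B. The MZ1484 signals were 173389 (CD49-) and 163590 (CD49+), while the MZ1468 signals were 129 and 116 in CD49- and 122 and 64.5 in CD49+, all 4 below the bound. By this probe set the gene was at least 144-fold higher in MZ1484, with a log2 difference of -9.42 ± 0.50 (SE) between submissions. The CD49 fractions of MZ1484 differed by -0.08 on that scale, 1 sample against 1. The other 2 Nr4a3 probe sets, both on MOE430A, did not show so wide a gap. 1421080_at was above the bound in all 6 samples, at 250.3, 177 and 235 in CD49- replicates 1 to 3 and at 252, 181 and 146 in CD49+ replicates 1 to 3, a submission difference of -0.41 ± 0.55. 1421079_at lay between 3.04 and 6.56, below the bound on all arrays.

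Nr4a2, the receptor NURR1, was covered by 6 probe sets, which fell into different patterns. In the brightest, 1455034_at on MOE430B, the MZ1484 signals were 214766 (CD49-) and 228182 (CD49+). The MZ1468 signals were 4811 and 1189.9 in CD49- and 74.5 and 5554 in CD49+, of which 3 were above the bound, so that this probe set, unlike 1416505_at of Nr4a1 and 1438796_at of Nr4a3, was above background in part of MZ1468. The difference between submissions was -7.04 ± 1.47 (SE) and the CD49 difference -0.78 ± 2.91. Probe set 1447863_s_at on MOE430B gave 22576 and 40694 in MZ1484 and 86.6, 1771, 146 and 2978 in MZ1468. Probe set 1450750_a_at on MOE430A gave 620 and 3488 in MZ1484 and 24.2, 55.3, 11.6 and 90.7 in MZ1468, in the sample order used for Nr4a1. The submission differences of these 2 probe sets were -5.27 ± 1.30 and -4.51 ± 0.81. The other 3 probe sets of Nr4a2 overlapped between submissions. 1433422_at on MOE430B, the only one of these 3 to pass the filter, ran the other way on average, with 499.9 in CD49- replicate 1, below the bound, and 1604 to 2323 in the other 5 samples, a difference of 0.71 ± 0.61. 1450749_a_at gave 266, 102 and 168 in CD49- and 51.3, 21.6 and 92.4 in CD49+ replicates 1 to 3, so that the CD49- samples were all above the CD49+ samples. 1433423_at lay between 242 and 479.8, below the bound on all arrays.

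**Figure D3:**
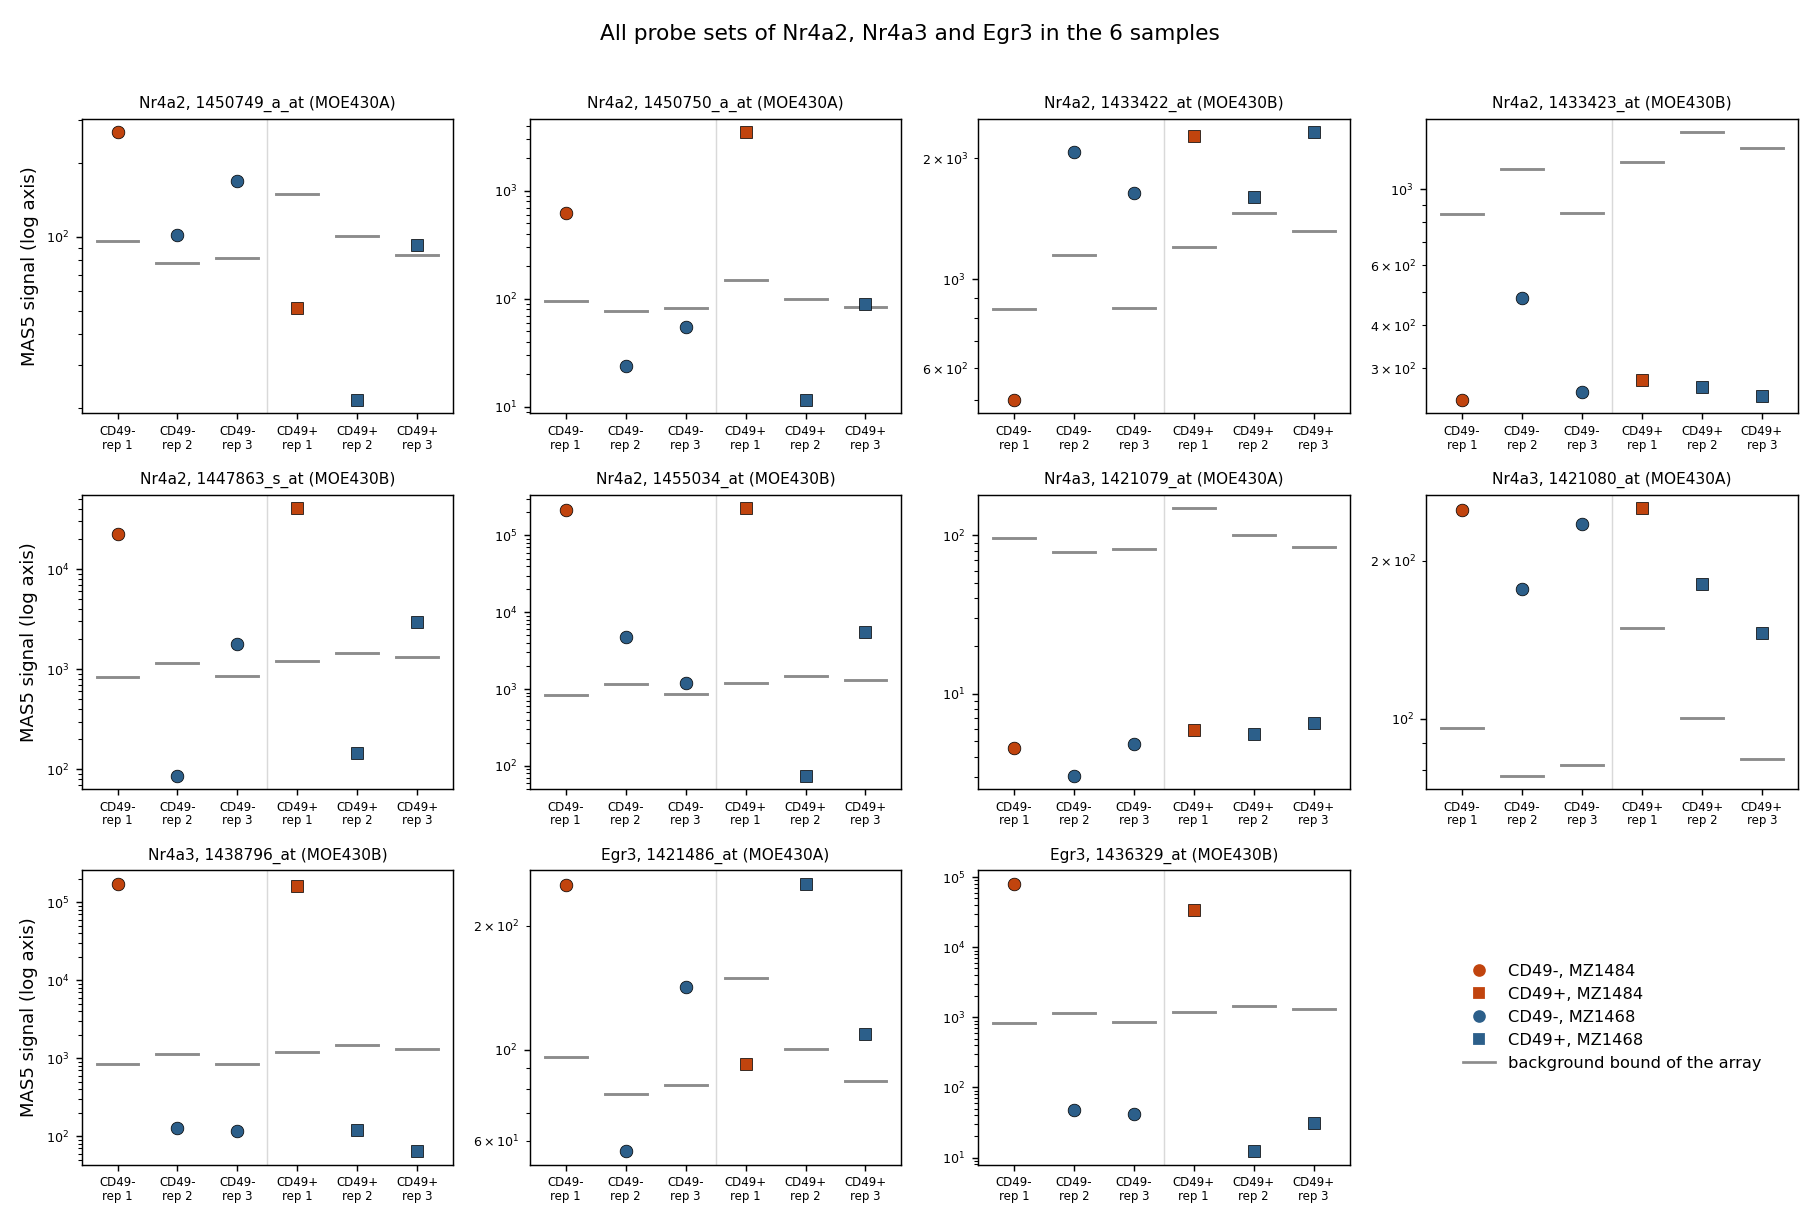
MAS5 signal (log axis) of all 11 probe sets of Nr4a2, Nr4a3 and Egr3 in the 6 samples, marked as in the plot of the 10 brightest probe sets. In Nr4a3 and Egr3 the MOE430B probe set separates the submissions widely (red above blue). Their MOE430A probe sets differ far less between submissions or lie below the bound, and that of Egr3 overlaps between them. In Nr4a2, 3 of 6 probe sets separate the submissions.

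Egr1, a factor with a known part in stem cell quiescence, was measured by 1417065_at on MOE430A. Its signal was 8826 (CD49-) and 4853 (CD49+) in MZ1484, and 90.3 and 51.6 in CD49- and 893 and 111 in CD49+ of MZ1468. The difference between submissions was -5.15 ± 1.12 (SE), and only CD49- replicate 3 was below the bound. The CD49+ samples were the higher ones within MZ1468, by 1.89 on the log2 scale, and the lower one within MZ1484, by -0.86, with a pooled CD49 difference of 0.97 ± 2.13. Egr3, a related factor known to limit the activation of T cells, showed an on and off pattern in its MOE430B probe set, 1436329_at. The MZ1484 signals of 81242 (CD49-) and 34027 (CD49+) stood against 47.9 and 42.1 in CD49- and 12.3 and 30.8 in CD49+ of MZ1468, all below the bound. By this probe set Egr3 was at least 44.9-fold higher in MZ1484, with a log2 difference of -8.26 ± 0.42. The MOE430A probe set of Egr3, 1421486_at, gave 251, 56.6 and 142 in CD49- and 92.4, 253 and 109 in CD49+ replicates 1 to 3, with a submission difference of -0.26 ± 0.70. It was above the bound in 1 MZ1484 sample and in 3 MZ1468 samples. Egr2, which in mice also acts in hindbrain patterning and myelination, was not above the bound in any sample. Its probe set 1427683_at reached 80.7 in CD49- replicate 1, the highest of its 6 signals, and 1427682_a_at reached 32.8 in the same sample, so that no direction is read for Egr2.

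The 3 Ier genes were above the bound in all 6 samples in their brightest probe sets, and their gaps between submissions were smaller. Ier2, a nuclear protein, gave 1363, 974 and 186 in CD49- replicates 1 to 3 and 8542, 266 and 2667 in CD49+ replicates 1 to 3 (1416442_at). CD49+ replicate 3, of MZ1468, lay above CD49- replicate 1, of MZ1484, so that the submissions overlapped, with a difference of -2.43 ± 1.25 (SE). Ier2 also had the highest CD49 difference of the 10 genes, 1.51 ± 1.52. The difference lay within this SE, which includes the gap between submissions. CD49+ was higher by 2.62 within MZ1484, 1 sample against 1, and by 0.95 within MZ1468. Ier3, which modulates cell survival under stress, gave 5991, 1535 and 2621 in CD49- and 8096, 1477 and 4151 in CD49+ (1419647_a_at). Ier5, a gene induced by growth factors and irradiation, gave 6534, 1416 and 4465 in CD49- and 14660.5, 2226 and 4211 in CD49+ (1417612_at). Both were higher in each MZ1484 sample than in any MZ1468 sample, with differences of -1.63 ± 0.68 for Ier3 and -1.81 ± 0.69 for Ier5. The remaining 2 Ier5 probe sets did not pass the filter. Among them 1460009_at was higher in CD49-, at 40.7, 265 and 144 against 8.17 to 9.18 in CD49+, with 265 and 144 above the bound and the other 4 signals below it, which makes it at least 1.08-fold higher. 1417613_at lay between 28.8 and 156.

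Plk2, the polo-like kinase, gave 2550 (CD49-) and 1120.2 (CD49+) in MZ1484 and 40.3, 61.1, 25.8 and 11.7 in MZ1468 in the sample order used for Nr4a1 (1427005_at on MOE430A). The 4 MZ1468 signals were below the bound, and Plk2 was at least 19.7-fold higher in MZ1484, with a log2 difference of -4.87 ± 0.52 (SE). CD49+ was lower by -1.17 within MZ1484, 1 sample against 1, and the pooled CD49 difference was -0.90 ± 1.76. The MOE430B probe set of Plk2, 1443780_at, was below the bound in all 6 samples, at 11.9 to 218. Nr4a1, Nr4a3, Egr3 and Plk2 were thus above the bound in the 2 MZ1484 samples only, by their brightest probe sets. In bulk samples, fewer cells of a type and less RNA per cell cannot be told apart.

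The first comparison set the CD49 fractions of these stem cells against each other right after sorting. Over the 9 genes with a signal above the bound, by their brightest probe sets, the median CD49+ minus CD49- log2 difference was -0.15, from -0.90 for Plk2 to 1.51 for Ier2, with 5 genes lower and 4 higher. With Egr2 included the median was 0.02. The median over all tested probe sets was -0.07 on MOE430A and 0.03 on MOE430B. In 5 genes the brightest probe set was above the bound in samples of both submissions. Of these the 3 Ier genes were higher on average in CD49+ within both, and Nr4a2 and Egr1 turned sign, with 1 sample against 1 in MZ1484. Within MZ1468 the CD49 groups overlapped for all 3 Ier genes, with mean differences of 0.95 for Ier2, 0.30 for Ier3 and 0.28 for Ier5. No probe set was called in this comparison on either design (0 of 11313 on MOE430A and 0 of 11256 on MOE430B, 0% of each, limma with Benjamini-Hochberg adjustment and a threshold of 0.05), while 272 and 414 had an unadjusted p under 0.05. With the submission as a block there were also 0 calls on both designs.

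Between submissions, the median difference over the same 9 genes was -5.15, from -9.42 for Nr4a3 to -1.63 for Ier3, with 9 of 9 lower in MZ1468. With Egr2 included the median was -5.01. The genes were chosen on this contrast and their brightest probe sets by these same signals, so nothing is read from the 9 of 9. By the highest mean log2 value, Plk2 would be represented by 1443780_at, below the bound on all arrays, with a difference of 0.16. The median over all tested probe sets ran the other way on MOE430A, at 0.43, and was 0.06 on MOE430B. The median over 10 genes rested on the brightest probe sets: with the highest mean log2 value choosing the probe set it was -3.79, with MOE430A probe sets preferred it was -2.12, and with all probe sets of a gene averaged it was -2.58. In the fit over all tested probe sets, limma called 839 on MOE430A (7.42%, with 131 or 1.16% lower in MZ1468) and 45 on MOE430B (0.400%, with 11 or 0.0977% lower). Of the 14 member probe sets tested, 6 were among those lower, 1 each of Nr4a1, Nr4a2, Nr4a3, Egr1, Egr3 and Plk2, and as the members were chosen on this contrast nothing is read from that count. The calls depended on single samples: without CD49- replicate 2, CD49- replicate 3 or CD49+ replicate 3 there were 0 on both designs, and without CD49+ replicate 2 there were 0 on MOE430B. Whether the CD49 difference itself differed between submissions was also fitted, and limma called 245 probe sets on MOE430A (2.17%) and 0 on MOE430B (0%, with 1301 at an unadjusted p under 0.05), none of them a member. That fit has 1 sample of each CD49 group in MZ1484, so its spread comes from MZ1468 alone, with 2 residual degrees of freedom per probe set. Without the mean-variance trend in limma, 0 were called on MOE430A as well, with 2175 at an unadjusted p under 0.05.

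**Figure D4:**
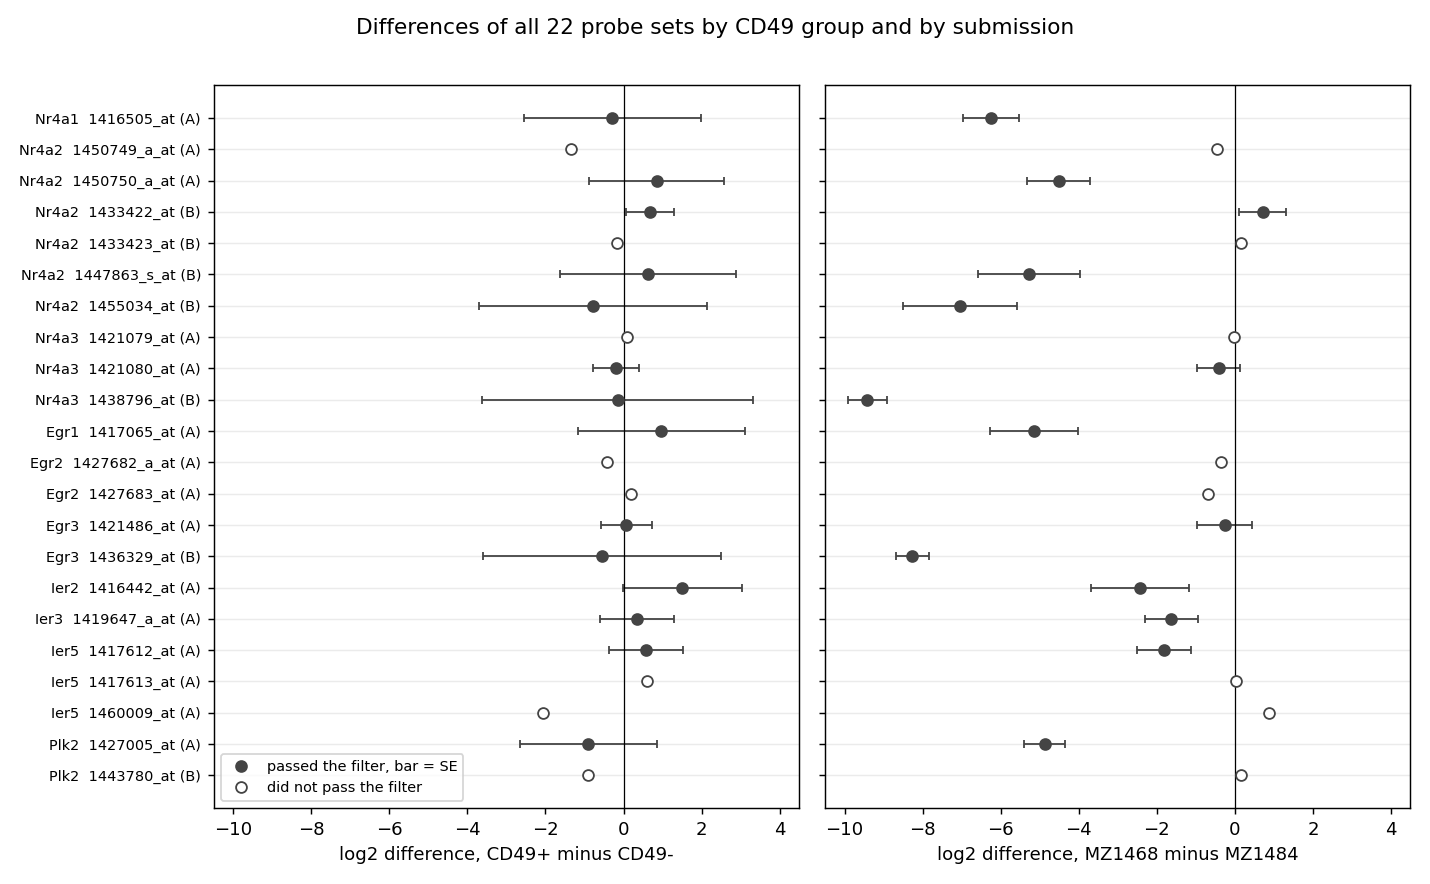
Log2 differences of all 22 probe sets by CD49 group (left, CD49+ minus CD49-) and by submission (right, MZ1468 minus MZ1484), with A and B for the array design, bars for the SE of the fit, and open circles for probe sets that did not pass the filter. On the left all points lie between -2.07 and 1.51; on the right they reach down to -9.42 for Nr4a3.

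Several measures of the arrays moved with the submission, and their part in these differences was not tested. On MOE430A the share of probe sets above the bound was 39.5% and 46.9% in MZ1484 and 49.7% to 61.1% in MZ1468. The ratio of the 3′ to the 5′ probe set of Actb, a measure of how far transcripts were copied, was 2.63 and 7.48 in MZ1484 and 8.83 to 19.8 in MZ1468 on MOE430A. On MOE430B it overlapped, at 3.26 and 11.7 against 6.52 to 14.7. The same ratio of Gapdh overlapped on both designs, at 95.7 and 1076 against 13.9 to 1146 on MOE430A and at 131 and 981 against 13.3 to 239 on MOE430B. Among markers of other cell types, 3 of 6 of the granulocyte and monocyte list (S100a8, Lyz2 and Csf1r) were above the bound on all arrays, and no marker of that list was below it on all. The summed signal of that list was 24203 and 33718 in MZ1484 and 3558 to 10684 in MZ1468, most of it Lyz2. For the megakaryocyte list, 4 genes with none above the bound on all arrays, the sums were 7463 and 7568 against 1085 to 3631, most of it Pf4 in MZ1484. The summed signal of the stem cell list on MOE430A was 43241 and 70865 in MZ1484 and 23711 to 28996 in MZ1468. Most genes of the whole stem cell list were lower in MZ1468 on the log2 scale: Procr (-3.43), Mecom (-2.99), Gata2 (-1.76), Hlf (-1.70) and Slamf1 (-1.49). Fgd5 (-0.52), Kit (-0.47) and Meis1 (-0.38) were also lower but nearer 0. Only Cd34 (1.45) and Ptprc (0.95) were higher. Ms4a1 of 3 B cell markers, Cd3e of 5 T cell markers, Alas2 and Hba-a1 of 4 erythroid markers and Lepr of 5 stromal and endothelial markers were below the bound on all arrays. In the same lists Cd79b (B cell), Cd8a (T cell) and Col1a2 (stromal) were above it on all arrays. Their differences MZ1468 minus MZ1484 were 1.91, -0.81 and -0.62. The remaining markers of these lists were above it on some arrays.

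The other genes of the pathway were taken from 4 lists, with 1 probe set per gene, that of the greatest average log2 value. The lists were drawn up with earlier results of these data known. Counts and p-values of their genes are therefore a description, and nothing is read from a list against the share over all genes. Over the 11808 genes whose probe set, chosen in this way, passed the filter, limma called 478 between submissions (4.05%), 395 higher and 83 lower in MZ1468. The median difference over the 11808 genes was 0.21, and 0 were called by CD49. Of 27 other early response genes, 26 passed the filter, 9 were called lower in MZ1468 and 0 higher, and 24 of 27 lay below 0, with a median of -4.02. By rule Fosb and Klf4 are named from them. Fosb, an AP-1 subunit, gave 16229 and 7427 in MZ1484 and 8.70 to 38.5 in MZ1468, and was at least 128-fold higher in MZ1484 (adjusted p = 0.0212 by limma). Klf4, a zinc finger factor, gave 3575 and 8537 against 4.57 to 8.49, and was at least 64.5-fold higher in MZ1484 (adjusted p = 0.0212 by limma). These 2 of the 9 were below the bound in all 4 MZ1468 samples. They passed the filter only through their MZ1484 signals. So did Atf3, Btg2 and Gadd45a, whose MZ1468 signals alone average below the filter threshold on the log2 scale. The other 7 that fell, named after their values were seen, were Fos, Atf3, Klf2, Dusp1, Zfp36, Btg2 and Gadd45a. Exceptions ran through the list: Myc was higher in each MZ1468 sample (1535 to 6971 against 1171 and 1215), and Jund stayed between 1663 and 3585 in all 6 samples, with a difference of 0.07 ± 0.60. Without CD49- replicate 2, CD49- replicate 3 or CD49+ replicate 3, 0 of the 27 were called lower, and without CD49+ replicate 1 there were 3. By CD49 the median of the list was -0.16 with 0 of 27 called; the genes of smallest p were Cd69, an early activation antigen (2.22 ± 0.84), and Ccn1 (0.85 ± 0.35), whose probe set was below the bound on all arrays.

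The factors that switch these genes on went both ways. Of 23 upstream kinases and transcription factors, 19 were measured and 18 passed the filter, 0 were called in either comparison, and the median difference between submissions was -0.15, with 8 higher and 11 lower, from -2.44 for Mapk8 to 1.71 for Mrtfb. Map2k1 (MEK1) gave 9896 and 4397 in MZ1484 and 534 to 2552 in MZ1468 (-2.43 ± 0.80, adjusted p = 0.122 by limma). Mapk8 (JNK1) gave 6318 and 1839 against 88.5 to 1494 (-2.44 ± 0.96, adjusted p = 0.323 by limma). Srf ranged from 110.3 to 5052 with no order by submission, and Creb1 from 6417 to 91767. By CD49 the 2 of smallest p were Mrtfa, a coactivator of SRF, and Mef2c, a MADS-box factor. Mrtfa gave 10.8, 37.0 and 100.4 in CD49- and 5688, 506 and 489 in CD49+. The CD49 groups did not overlap, as for 7.31% of all probe sets on MOE430A, and the difference of 4.11 ± 1.12 did not pass (adjusted p = 1.00 by limma). The CD49- signals 10.8 and 37.0 were below the bound. Mrtfa passed the filter only through its CD49+ signals, since its CD49- signals alone average below the threshold on the log2 scale. Mef2c gave 5272, 4669.6 and 4809.7 in CD49- and 704, 2187 and 2836 in CD49+ (-1.57 ± 0.83, adjusted p = 1.00 by limma).

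Of 7 partners and corepressors, 5 were measured and 2 passed the filter, with 0 called. Nab1, a corepressor of the Egr factors, differed by 1.92 ± 0.95 between submissions, which overlapped. Its MZ1484 signals were 45.1, below the bound, and 745, against 576 to 1345 in MZ1468. Rxrb, a retinoid X receptor of the family that pairs with Nr4a receptors, differed by -0.51 ± 0.80, also with overlap. Nab2, itself an Egr target, did not pass the filter; its signals were 316 and 484 in MZ1484 and 24.4 to 128 in MZ1468. Of 6 relatives of the members, 2 passed the filter, both polo-like kinases of cell division, and 1 was called. Plk4, which starts centriole duplication, was higher in MZ1468, at 781 to 3879.8 against 89.2 and 32.1, opposite in direction to Plk2. It was below the bound in both MZ1484 samples and at least 11.2-fold higher in MZ1468 (adjusted p = 0.0382 by limma). Plk4 passed the filter only through its MZ1468 signals, since its MZ1484 signals alone average below the threshold on the log2 scale. Plk1, a mitotic kinase, lay the same way at 297 to 1260.2 against 141 and 41.2 (2.66 ± 0.82, adjusted p = 0.106 by limma). Egr4, Ier5l, Plk3 and Wt1 were below the bound on all arrays.

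**Figure D5:**
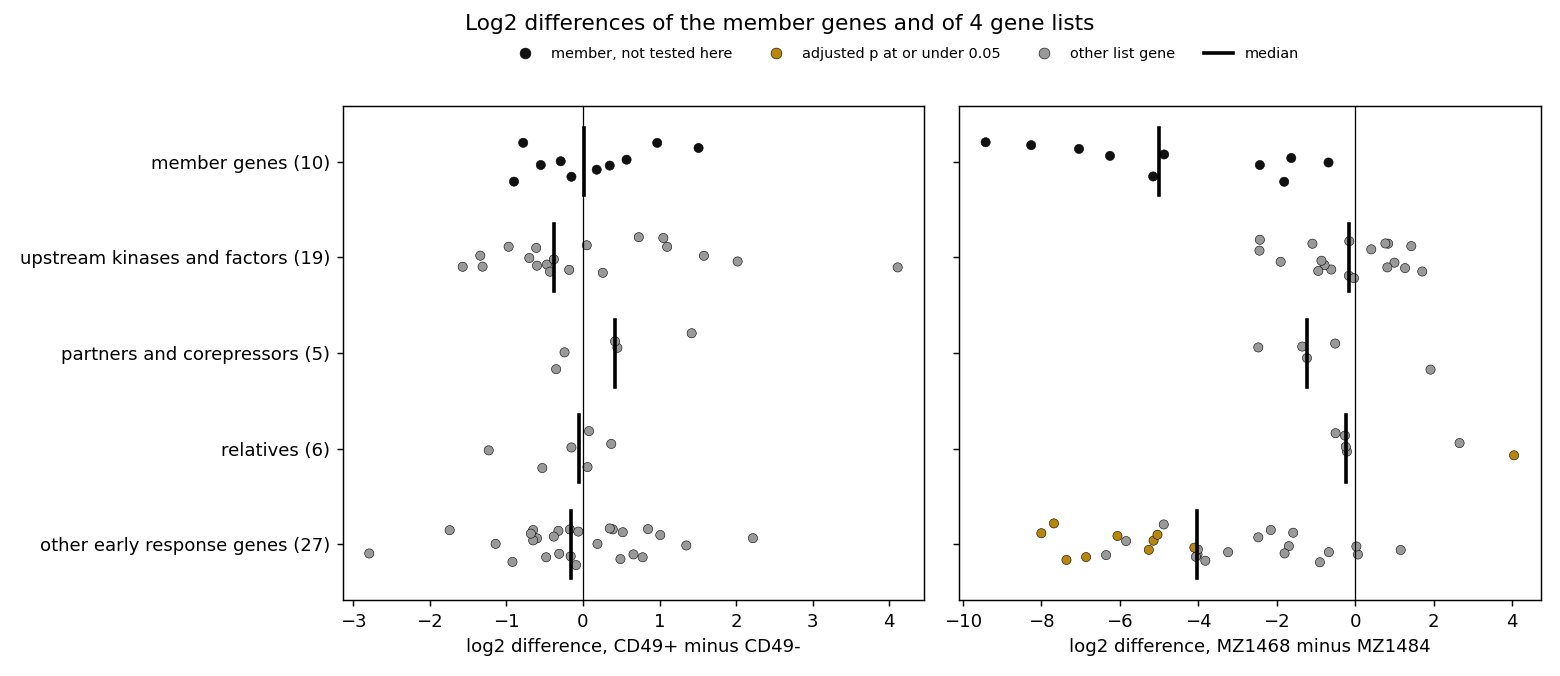
Log2 differences by CD49 group (left) and by submission (right) of the 10 member genes and of 4 gene lists, 1 point per gene, with a bar at the median of each row; vertical scatter within a row has no meaning and the axes of the panels differ in range. By submission the medians are -5.01 for the members, by their brightest probe sets, and -4.02 for the other early response genes and -0.15 for the upstream kinases and factors, by the highest mean log2 value, a rule that gives -3.79 for the members.

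Genes with the most similar pattern over the 6 samples were sought for Egr1, Nr4a1 and Ier2 among 7321 genes on MOE430A, by the root mean square distance between log2 values centred on their own mean. With 6 samples, genes that split the submissions lie near each other whatever else they share, and the distances are a description. Closest to Nr4a1 were Cd28 (0.57), a T cell costimulatory receptor, Crem (0.65), a cAMP-responsive factor, and Btg2 (0.68), an antiproliferative early response gene. That Crem probe set, 1418322_at, gave 3841 and 1618 in MZ1484 and 2.19 to 31.0 in MZ1468, while the MOE430B probe set that stood for Crem among the upstream factors overlapped between submissions (1528 and 1076 against 249 to 1107 in the samples of each). Closest to Egr1 were Zfp36l1 (0.82), an RNA decay factor, Rab40b (0.94) and H2-Aa (1.01), an MHC class II chain. Of the other members, Plk2 ranked 8 for Nr4a1 and 17 for Egr1, and Nr4a1 ranked 23 for Egr1. By their MOE430A probe sets, which do not separate the submissions as their MOE430B ones do, Nr4a3 and Egr3 ranked 1919 and 2357 for Nr4a1 and 1716 and 1285 for Egr1. Closest to Ier2 were Tank (0.72), Stk17b (0.78) and Rras (0.86), and the nearest member was Ier3, at rank 162.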

How the data were processed

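PCR-amplified cDNA of 3 CD49- and 3 CD49+ samples of sorted mouse marrow stem cells was measured on 2 Affymetrix designs, MOE430A and MOE430B. The authors deposited linear signal intensity values, 1 per probe set, made with MAS5 per the submitters' processing notes; its version is not given in the sources used. The intensity values were used as deposited, with the tables of the designs handled separately. Gene symbols came from the platform annotation, with 20380 probe sets of 1 symbol on MOE430A and 14661 on MOE430B.

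Before log2, a pseudocount was added, equal to percentile 25 of the design's signals (27.0 for MOE430A, 139.8 for MOE430B), so differences of dim probe sets are understated. Probe sets at or above the median of the mean log2 values were tested in R 4.3.3 using limma 3.58.1 (mean-variance trend, Benjamini-Hochberg within each design, threshold 0.05) for CD49, for submission with CD49 as a covariate, and for their interaction. The script was tested on simulated data. The number of arrays limits the precision.

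Members, lists and motifs were chosen with earlier results of these data known. The brightest probe set was taken by mean linear signal after values were seen, since the mean log2 value gives for Plk2 a probe set below the bound on all arrays. Named besides the members were the 2 tested genes of smallest p per list and comparison and the 3 nearest patterns to Egr1, Nr4a1 and Ier2.

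Alternatives were another pseudocount, filter, scaling, block, probe set choice and bound, and leaving out each sample.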

Additional observations from a re-analysis of the deposited data

How the results depend on the processing

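Across the settings run, the CD49 comparison gave 0 calls on both designs, also with the submission as a block and without each sample in turn, and the member median by CD49 ranged from -1.15 to 1.69 when 1 sample was left out. The scan day splits the samples as the submission does, so a block on it is the same fit. By their brightest probe sets, differences between submissions of the 10 genes, Egr2 below the bound among them, lay below 0 in 110 of 110 values under other settings. Of these values, 16 moved by over 1 SD between samples. The settings refit the same arrays and the genes were chosen on this contrast, so nothing is read from the 110 of 110. Some other probe sets of Nr4a2, Ier5 and Plk2 lay above 0 in the main setting. The member median of -5.01 became -4.13 with the median signal as pseudocount, -2.58 with all probe sets of a gene averaged, -2.12 with MOE430A preferred, -2.43 over the 5 genes above the bound on at least 3 arrays, and -3.79 with the highest mean log2 value choosing the probe set, a choice added after seeing the data. Without 1 sample it ranged from -5.73 to -4.22. Submission calls on MOE430A (839) became 559 with the median signal as pseudocount, 319 with no filter, and 0 to 1298 without 1 sample. On MOE430B (45) they became 95 with a pseudocount of 1, 12 with the median signal, 149 among the top 25% by signal, 18 with median centring (9 higher and 9 lower), 176 with no trend, 148 without the CD49 covariate, and 0 to 28 without 1 sample. The median of all probe sets on MOE430A moved from 0.43 to 0.16 with median centring and to 0.01 with quantile normalization. Probe sets whose CD49 difference differed between submissions on MOE430A (245) became 31 with no filter, 734 among the top 25%, 88 with quantile normalization and 0 with no trend, settings added after seeing the data. Of the other early response genes, 9 were called, 4 with no filter and 0 to 9 without 1 sample. The cause was not tested, except that no filter and fewer samples change what is tested by construction. With the second highest Bacillus control as bound, 4 and not 5 member probe sets stayed below it on all arrays. No paired analysis was run beyond the submission block. MZ1484 holds 1 sample of each CD49 group, but the labels do not say which CD49- and CD49+ samples of MZ1468 belong together. The replicate numbers used here are in accession order and only name samples.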
